A study of Homo sapiens with 7 samples.

Results

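The 36 genes described here make, take up, move, export or store cholesterol. They were chosen by name, as a list of sterol genes, with earlier results of these data known. All 36 were found among the 60675 gene identifiers of the deposited count table. All 36 had enough counts to be tested, among 16583 tested genes. RNA was sequenced from MDA-MB-231 cells, an established human line of triple-negative breast cancer, harvested 2 days after siRNA was given. The siDEPDC1 group (4 libraries; genotype label DEPDC1 KD) received siRNA against DEPDC1, and the siCTL group (3 libraries; DEPDC1 WT) received a control siRNA. Both groups shared the same lipid transfection reagent, a medium change after 8 h and growth in serum-containing medium, and come from 1 cell line. The labels do not tie the libraries of a group to separate cultures. The p-values therefore rest on variation among libraries that could be technical.

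Animal cells build cholesterol from acetyl-CoA through mevalonate, farnesyl diphosphate, squalene and lanosterol. The transcription factor SREBP2, held in the endoplasmic reticulum by SCAP and INSIG proteins when sterol is plentiful, is cleaved in the Golgi when sterol is scarce and then switches on the synthesis and uptake genes. Lipoprotein cholesterol is freed in lysosomes and leaves them through NPC2 and NPC1. Surplus is esterified by SOAT1 and stored in droplets, released again by ester hydrolases such as NCEH1, or exported by ABCA1 and ABCG1, which the oxysterol receptors LXR alpha (NR1H3) and LXR beta (NR1H2) induce. The listed genes were therefore read by role: synthesis, SREBP2 control, uptake, intracellular transport, export, and ester turnover.

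Library totals ran from 7690583 to 13483305 counts in siDEPDC1 and from 11704246 to 15360409 counts in siCTL, and no sterol gene had fewer than 22 counts in a library. The siRNA target DEPDC1 averaged 13.3 ± 1.42 CPM (counts scaled to library size with TMM factors) in siDEPDC1 and 118 ± 3.20 CPM in siCTL (SD, n = 4 and 3). Of the line's markers, the mesenchymal gene VIM lay between 3483 and 3860 CPM in all libraries, whereas ESR1 and PGR stayed at or under 0.65 CPM and CDH1 at or under 1.54 CPM. EPCAM, listed as low, was present at 10.1 to 12.5 CPM. Of 12 markers of other cell types, 5 were tested, 2 rose (COL1A1 and CD14) and none fell. Their summed level was 54.6 to 62.3 CPM in siDEPDC1 and 37.0 to 42.4 CPM in siCTL, with MS4A1 and DCN at 0 in every library. Their part in the results was not tested.

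After DEPDC1 siRNA, 14 of the 36 sterol genes fell and 6 rose (quasi-likelihood test of edgeR, adjusted p under 0.05 by Benjamini-Hochberg over all tested genes). Falls were 38.9% of the sterol genes, beside 17.9% of all tested genes. Rises were 16.7%, beside 16.5% of all tested genes, a share near the background. The median log2 fold change, siDEPDC1 over siCTL, was -0.077 for the list and 0.00094 for all tested genes, and the median size regardless of sign was 0.19 for both. In 18 genes, or 50%, every siDEPDC1 library lay on one side of every siCTL library, against 37.3% of all tested genes. Falls of at least 1.5-fold were seen in 3 members, NCEH1, ABCA1 and SC5D, which is 8.33% beside 4.59% of all tested genes. The count of rises was 3 without siCTL replicate 1 and 3 without siDEPDC1 replicate 4. Over all tested genes, 2732 of 16583 rose with all libraries. Without siCTL replicate 1 it was 2164 of 16828, and without siDEPDC1 replicate 4 it was 2626 of 16600. In such bulk samples, fewer cells of a type and less RNA per cell cannot be told apart.

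**Figure D1:**
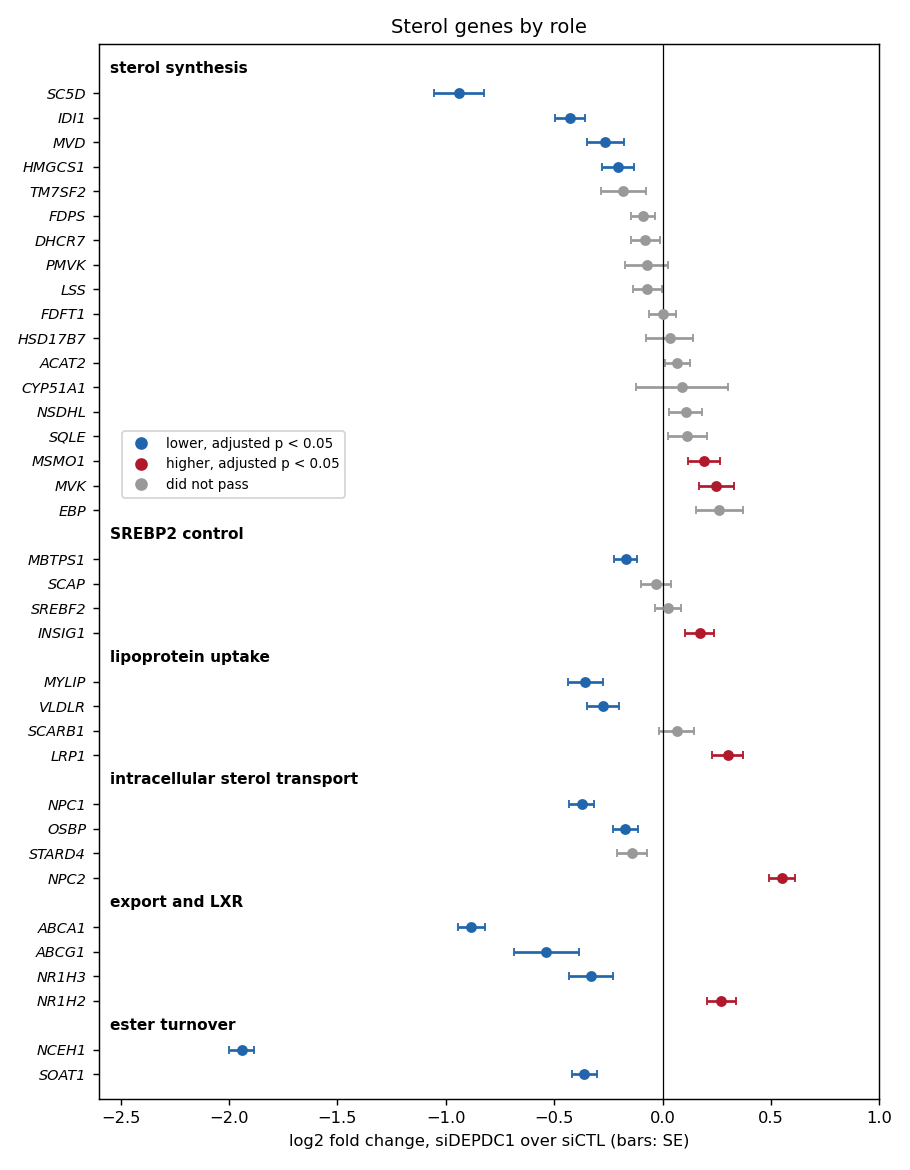
Log2 fold change (x axis, siDEPDC1 over siCTL) of each of the 36 sterol genes, grouped by role. Points are fitted values with bars for the standard error, in blue where lower, red where higher and grey where the test was not passed. Most synthesis genes sit close to 0, while NCEH1 at -1.94, SC5D at -0.94 and ABCA1 at -0.88 lie farthest to the left.

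The roles differed in how many of their genes moved. Among 18 synthesis genes, 4 fell, 2 rose and 12 did not pass the test, a called share of 33.3% against 34.4% of all tested genes, and the median size of their log2 fold changes was 0.11 against 0.19. Among the 18 genes of the other roles, 10 fell and 4 rose, and the median size was 0.29. All 4 export and LXR genes passed the test, 3 lower and 1 higher, as did both ester turnover genes, which were lower. Uptake had 2 lower and 1 higher of 4, intracellular transport 2 lower and 1 higher of 4, and SREBP2 control 1 lower and 1 higher of 4. The 2 lower uptake genes were the receptor VLDLR and MYLIP, a ligase that sends such receptors to degradation. Over all tested genes 17.9% were lower and 16.5% higher. These role values are counts over short lists and no test compared the roles.

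The cholesterol ester hydrolase NCEH1 fell furthest. NCEH1 (ENSG00000144959; GRCh38 chromosome 3, 172630249 to 172711218, minus strand) was at 79.4, 80.8, 77.3 and 68.9 CPM in the siDEPDC1 libraries, against 303, 284 and 296 CPM in the siCTL libraries. Means were 76.6 ± 5.33 CPM in siDEPDC1 (SD, n = 4) and 294 ± 9.27 CPM in siCTL (SD, n = 3), or 26.0% of the siCTL level in siDEPDC1. The log2 fold change was -1.94 ± 0.059 (SE; edgeR adjusted p = 1.2e-23). Per exonic length, NCEH1 held rank 12 of the 36 sterol genes in siDEPDC1, at 53.9 ± 4.37 TPM (SD, n = 4), and rank 1 in siCTL, at 207 ± 5.52 TPM (SD, n = 3).

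SOAT1, the acyltransferase of the endoplasmic reticulum that forms cholesterol esters, fell less. It stood at 97.1, 93.6, 97.3 and 88.5 CPM in siDEPDC1, against 122, 122 and 118 CPM in siCTL (log2 fold change -0.36 ± 0.057, edgeR adjusted p = 5.4e-06). The groups of libraries did not overlap for either ester gene. Within each library, the log2 ratio of NCEH1 to SOAT1 counts was -0.29, -0.21, -0.33 and -0.36 in siDEPDC1 and 1.31, 1.22 and 1.33 in siCTL. NCEH1 thus had more counts than SOAT1 in every siCTL library and fewer in every siDEPDC1 library, but counts are not divided by gene length. Per exonic length, NCEH1 averaged above SOAT1 in both groups. Means of NCEH1 and SOAT1 were 53.9 and 45.5 TPM in siDEPDC1, and 207 and 58.4 TPM in siCTL. The log2 ratio of counts had a mean difference of -1.58 between the groups. This ratio does not depend on library scaling, although the direction of each gene was known when it was formed.

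NCEH1 is a carrier of the word GATAACT in its 3' UTR. That word was found from the fold changes of these same libraries, so a carrier's fall adds no independent evidence about it. The 3' UTR of a single GENCODE 29 transcript per gene was searched on the sense strand. Among the sterol genes 5 of 36 carried the word (13.9%), each with 1 copy, beside 7.65% of 12504 searched genes. The sites are shown in the orientation of the transcript, with the word in capitals, because 4 of these 5 genes fell and the last, STARD4, did not pass the test. Falls were 80% of these carriers, beside 17.9% of all tested genes. The share of falls over all searched carriers is not given here.

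NCEH1: tcttattctgtGATAACTatcctcctcat
SC5D: ggtatgataatGATAACTtgttttgactt
IDI1: attagttatgtGATAACTatgagttgcca
OSBP: gtccacgcggaGATAACTgcgatattgga
STARD4: tagtttgtgttGATAACTcttagttaacc

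These stretches lie at chr3:172631341-172631369 (minus strand), chr11:121307977-121308005 (plus), chr10:1039745-1039773 (minus), chr11:59576006-59576034 (minus) and chr5:111496969-111496997 (minus) of GRCh38, in the order shown.

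Carriers had log2 fold changes from -1.94 (NCEH1) to -0.14 (STARD4), with a median of -0.43. The 31 searched sterol genes without the word had a median of -0.031. As the word was found from these fold changes, the lower median of carriers is no independent evidence about it. Of the 31 genes without the word, 10 fell and 6 rose, or 32.3% and 19.4%, beside 17.9% and 16.5% of all tested genes. ABCA1, NPC1, SOAT1 and MYLIP were among those 10. With every annotated transcript searched, NPC2 was a further carrier (6 of 36), and NPC2 rose.

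**Figure D2:**
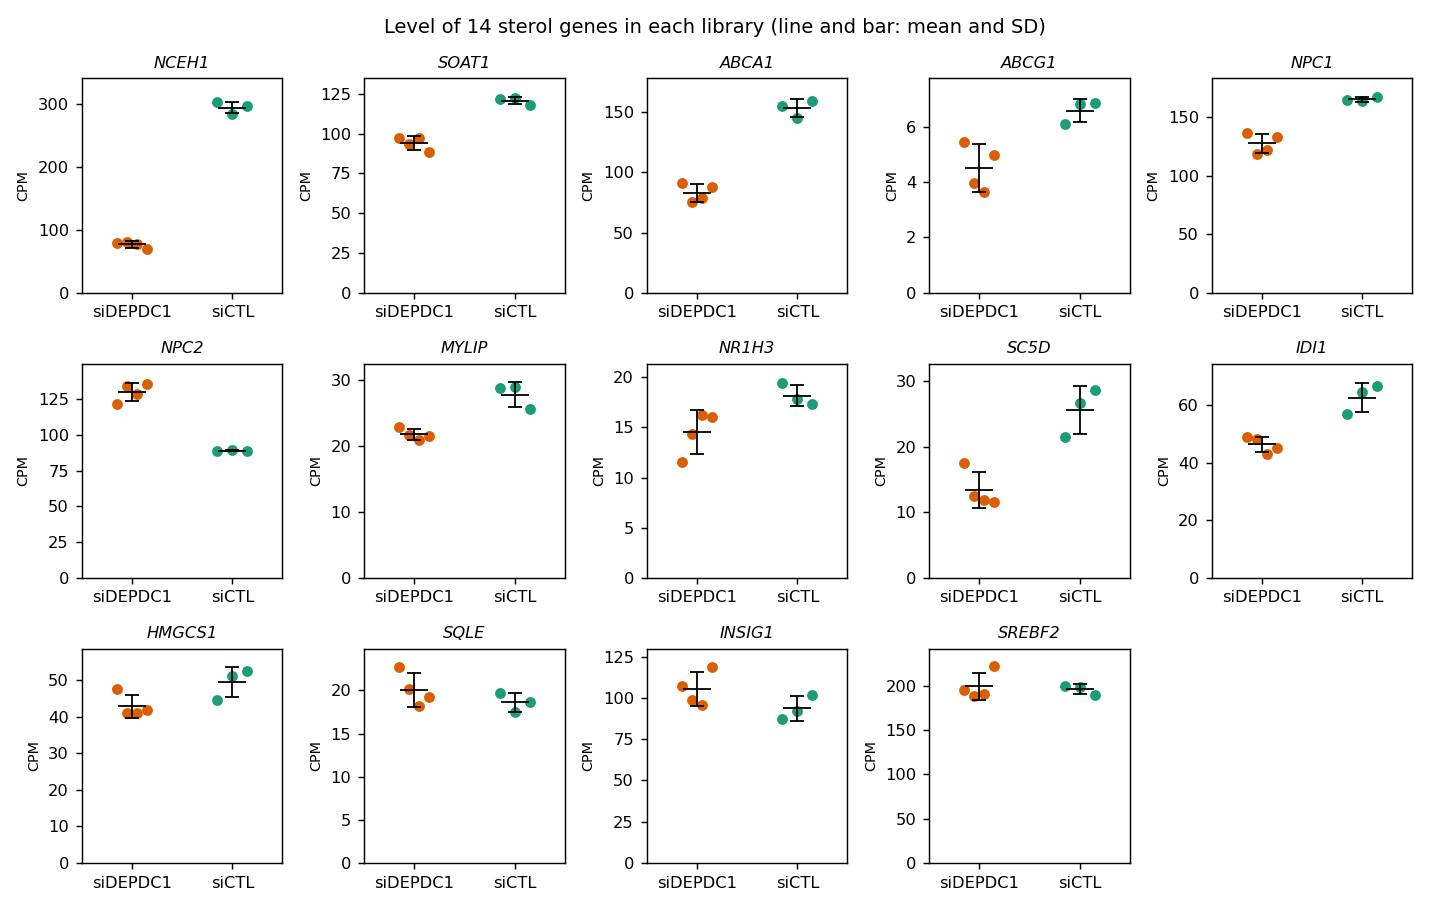
Level in CPM (y axes, each from 0) of 14 sterol genes in the 4 siDEPDC1 libraries (orange, left) and the 3 siCTL libraries (green, right), with the mean and SD in black. NCEH1, SOAT1, ABCA1, ABCG1, NPC1, NPC2, MYLIP, NR1H3, SC5D and IDI1 show no overlap between groups, whereas HMGCS1, SQLE, INSIG1 and SREBF2 overlap.

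The exporters ABCA1 and ABCG1 fell. ABCA1 (ENSG00000165029; chromosome 9, 104781002 to 104928237, minus strand), the transporter that loads cholesterol and phospholipid onto apolipoprotein A-I, was at 91.0, 75.0, 78.7 and 87.9 CPM in siDEPDC1, against 155, 145 and 159 CPM in siCTL. All 4 siDEPDC1 libraries lay below the lowest siCTL library, and 54.2% of the mean siCTL level was left (log2 fold change -0.88 ± 0.063, edgeR adjusted p = 1.8e-13). ABCG1, which passes cholesterol to high-density lipoprotein, is a low gene in these cells. It had 5.46, 3.97, 3.64 and 4.98 CPM in siDEPDC1 and 6.10, 6.81 and 6.85 CPM in siCTL (log2 fold change -0.54 ± 0.15, edgeR adjusted p = 0.0050).

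The LXR genes moved in opposite directions. NR1H3, the LXR alpha gene, was at 11.5, 14.3, 16.2 and 16 CPM in siDEPDC1, against 19.4, 17.8 and 17.3 CPM in siCTL, and fell (log2 fold change -0.33 ± 0.10, edgeR adjusted p = 0.010). Without siCTL replicate 1 that call was lost (edgeR adjusted p = 0.067). NR1H2, the LXR beta gene, rose to 79.1 ± 6.96 CPM in siDEPDC1, against 65.6 ± 2.61 CPM in siCTL (SD, n = 4 and 3; log2 fold change 0.27, edgeR adjusted p = 0.0017). Within a library the log2 ratio of NR1H2 to NR1H3 counts was 2.29 to 2.61 in siDEPDC1 and 1.80 to 1.90 in siCTL, a pair chosen after these values were seen. Exons of NR1H3 share bases with ACP2 on the opposite strand, which had 33.3 CPM in siDEPDC1 and 36.4 CPM in siCTL. The sources used here do not give the strand setting of the counting, so reads of overlapping genes cannot be told apart. The same limit holds for HMGCS1 (with AC114947.2), VLDLR (VLDLR-AS1), NPC1 (RMC1) and NPC2 (ISCA2). Those opposite-strand genes stood at 21.9% to 24.0% of the member's siCTL level. For FDPS, the opposite-strand gene RUSC1-AS1 stood at 67.2%. None of these overlapping genes passed the test.

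MYLIP, an LXR-induced ubiquitin ligase that sends lipoprotein receptors such as VLDLR to degradation, was at 22.8, 21.6, 20.9 and 21.4 CPM in siDEPDC1 and 28.7, 28.9 and 25.6 CPM in siCTL. It fell, with no overlap between groups (log2 fold change -0.36 ± 0.079, edgeR adjusted p = 0.00059). VLDLR, the very-low-density lipoprotein receptor, fell to 39.8 ± 2.73 CPM in siDEPDC1, against 47.9 ± 4.00 CPM in siCTL (SD, n = 4 and 3; log2 fold change -0.27, edgeR adjusted p = 0.0040). LRP1, a large endocytic receptor for apolipoprotein E and many other ligands, rose to 130 ± 16.2 CPM in siDEPDC1, against 106 ± 4.52 CPM in siCTL (log2 fold change 0.30, edgeR adjusted p = 0.0012). SCARB1, the high-density lipoprotein receptor, had a log2 fold change of 0.065 (95% interval -0.099 to 0.23) and did not pass the test. Exons of LRP1 overlap those of STAT6 on the other strand, which fell (log2 fold change -0.27, edgeR adjusted p = 0.00046). The VLDLR call was lost without siCTL replicate 2 (edgeR adjusted p = 0.057).

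The lysosomal sterol carriers NPC2 and NPC1 went opposite ways. NPC2, the soluble protein that picks cholesterol up in the lysosome, was at 121, 134, 129 and 135 CPM in siDEPDC1, against 88.5, 89.2 and 88.7 CPM in siCTL. It had the largest rise of the 36 genes (log2 fold change 0.55 ± 0.058, edgeR adjusted p = 2.5e-09), and per exonic length it held rank 1 in siDEPDC1 and rank 3 in siCTL. NPC1, the membrane protein that receives cholesterol from NPC2, was at 136, 119, 122 and 133 CPM in siDEPDC1 and 165, 164 and 167 CPM in siCTL (log2 fold change -0.37 ± 0.058, edgeR adjusted p = 3.6e-06). Within each library the log2 ratio of NPC2 to NPC1 counts was -0.17, 0.18, 0.072 and 0.026 in siDEPDC1, against -0.90, -0.88 and -0.92 in siCTL. That pair, too, was chosen after these values were seen. The ranges of the groups did not overlap.

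OSBP, which exchanges cholesterol for phosphatidylinositol phosphate between the endoplasmic reticulum and the Golgi, fell to 105 ± 3.31 CPM in siDEPDC1, against 118 ± 4.61 CPM in siCTL (SD, n = 4 and 3; log2 fold change -0.17, edgeR adjusted p = 0.018). Without siCTL replicate 3 the OSBP call was lost (edgeR adjusted p = 0.098). The cytosolic sterol carrier STARD4, itself a target of SREBP2, had a log2 fold change of -0.14 (95% interval -0.28 to -0.0020) and did not pass the adjusted test. It passed, as lower, without siCTL replicate 1 (edgeR adjusted p = 0.030) or siDEPDC1 replicate 1 (edgeR adjusted p = 0.027). STARD4-AS1, which overlaps it on the other strand, was higher (log2 fold change 0.28, edgeR adjusted p = 0.010).

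**Figure D3:**
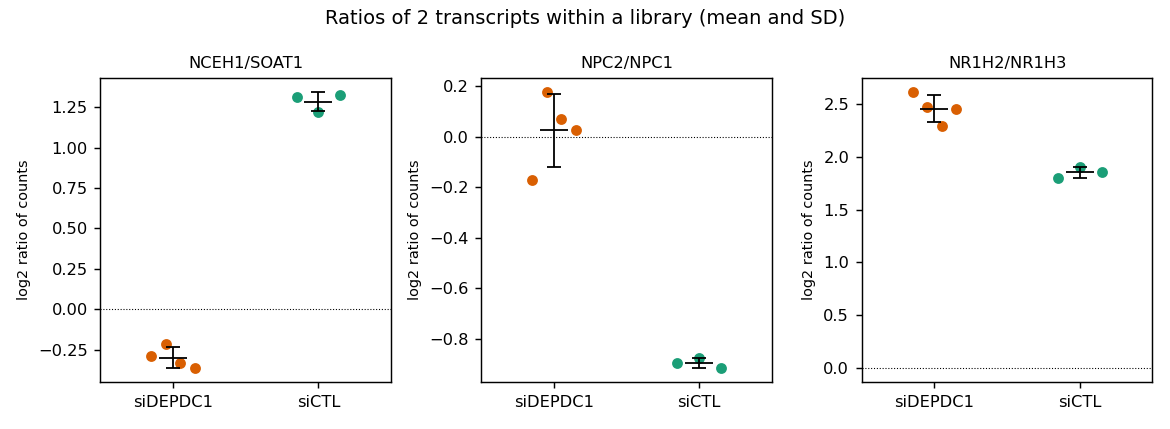
Log2 ratio of the counts of 2 genes within each library (y axes), for NCEH1 over SOAT1, NPC2 over NPC1 and NR1H2 over NR1H3, in siDEPDC1 (orange, left) and siCTL (green, right), with the mean and SD in black and a dotted line at equal counts. The first ratio is below 0 in all 4 siDEPDC1 libraries and above 0 in all 3 siCTL libraries, and the other ratios are higher in siDEPDC1. Counts are not divided by gene length, so the dotted line does not mark equal levels of the 2 genes.

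In the synthesis pathway the clear falls were at separated steps. SC5D (ENSG00000109929; chromosome 11, 121292453 to 121308694, plus strand), the sterol desaturase acting just before the last enzyme DHCR7 on one branch, was at 17.5, 12.5, 12.0 and 11.6 CPM in siDEPDC1, against 21.5, 26.8 and 28.7 CPM in siCTL. Every siDEPDC1 library was below every siCTL library, with siDEPDC1 replicate 1 apart from the other 3 (log2 fold change -0.94 ± 0.11, edgeR adjusted p = 2.1e-07). IDI1, the isomerase that makes the allylic isoprene unit, was at 48.9, 48.1, 43.0 and 45.2 CPM in siDEPDC1 and 56.8, 64.4 and 66.4 CPM in siCTL (log2 fold change -0.43 ± 0.070, edgeR adjusted p = 7.9e-06). Both carry the word shown above. IDI2-AS1, which overlaps IDI1 on the other strand, had a log2 fold change of -0.47 (edgeR adjusted p = 0.0049), and its reads and those of IDI1 cannot be told apart.

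Of the 7 genes of the mevalonate arm, from ACAT2 to FDPS, 3 fell, IDI1 among them, and 1 rose. That is a called share of 57.1%, beside 34.4% of all tested genes. Falls were 42.9%, beside 17.9% of all tested genes. Apart from IDI1, changes in this arm were small and of both signs. HMGCS1, the HMG-CoA synthase, was at 47.5, 41.0, 41.1 and 41.7 CPM in siDEPDC1 and 44.7, 51.2 and 52.3 CPM in siCTL. It fell (log2 fold change -0.21 ± 0.073, edgeR adjusted p = 0.028), but the groups overlapped, as siDEPDC1 replicate 1 lay above siCTL replicate 1. The decarboxylase MVD fell (log2 fold change -0.26, edgeR adjusted p = 0.016) and the kinase MVK rose (0.25, edgeR adjusted p = 0.017). ACAT2, the thiolase that starts the pathway, was at 0.067, the phosphomevalonate kinase PMVK at -0.074 and the farnesyl diphosphate synthase FDPS at -0.091 on the log2 scale, and none of the 3 passed the test, although for ACAT2 and FDPS the libraries of the groups did not overlap. ACAT2 shares exon bases with TCP1 and MVK with MMAB on the opposite strand, neither of which passed the test.

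In the arm from squalene to cholesterol, 9 of 11 genes did not pass the test. The 2 that passed are a called share of 18.2%, beside 34.4% of all tested genes. SQLE, the squalene epoxidase and a rate-controlling step, was at 22.7, 20.1, 18.2 and 19.2 CPM in siDEPDC1, against 19.7, 17.5 and 18.6 CPM in siCTL. The groups overlapped, and its log2 fold change of 0.11 had a 95% interval of -0.067 to 0.30 (edgeR adjusted p = 0.34). MSMO1, the sterol methyl oxidase, rose by a log2 fold change of 0.19 (edgeR adjusted p = 0.040). The sterol isomerase EBP, at 0.26 on the log2 scale, missed the threshold (edgeR adjusted p = 0.060). The squalene synthase FDFT1 (-0.00062), the lanosterol synthase LSS (-0.070), the sterol reductase TM7SF2 (-0.18), the dehydrogenases NSDHL (0.11) and HSD17B7 (0.033), DHCR7 (-0.079) and the lanosterol demethylase CYP51A1 (0.089) did not pass it either. CYP51A1 was measured at 3.05 CPM in siDEPDC1 and 2.82 CPM in siCTL, with a 95% interval of -0.34 to 0.52. Its exons overlap on the same strand those of AC000120.2 and AC000120.3, which are listed at 0 counts throughout, and the effect of that overlap on its level was not tested. TM7SF2 likewise shares exon bases with VPS51, which was at 91.2 CPM in siDEPDC1 and 82.4 CPM in siCTL and did not pass the test.

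Several synthesis calls did not hold when 1 library was left out. Without siCTL replicate 2 or 3, or siDEPDC1 replicate 2, 3 or 4, HMGCS1 lost its call (edgeR adjusted p = 0.117, 0.113, 0.0985, 0.0842 and 0.0550). MSMO1 lost its call without siCTL replicate 1 or 2, or siDEPDC1 replicate 1, 2 or 4 (edgeR adjusted p = 0.302, 0.0814, 0.0630, 0.0904 and 0.0875). MVK lost it without siDEPDC1 replicate 4 (edgeR adjusted p = 0.0951) and without siCTL replicate 1 (0.0691), and MVD without siDEPDC1 replicate 1 (0.0724) and without siCTL replicate 1 (0.0608). EBP passed, as higher, without siDEPDC1 replicate 2 (edgeR adjusted p = 0.0420) and without siCTL replicate 3 (0.0413), and DHCR7, as lower, without siDEPDC1 replicate 4 (edgeR adjusted p = 0.0451). SC5D and IDI1 kept their calls with every library left out in turn.

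Of the 4 genes that control SREBP2, MBTPS1 fell, INSIG1 rose, and SREBF2 and SCAP did not pass the test. SREBF2, which encodes SREBP2, was at 195, 189, 191 and 222 CPM in siDEPDC1 and 200, 199 and 190 CPM in siCTL. The groups overlapped, and the log2 fold change of 0.024 had a 95% interval of -0.095 to 0.14. INSIG1, a retention factor and itself an SREBP2 target, was at 108, 99.0, 95.6 and 119 CPM in siDEPDC1, against 87.2, 92.0 and 102 CPM in siCTL. It passed the test only narrowly (log2 fold change 0.17 ± 0.068, edgeR adjusted p = 0.048), with overlap between groups. Without siCTL replicate 1 or 2, or siDEPDC1 replicate 1 or 4, it did not pass (edgeR adjusted p = 0.254, 0.154, 0.0724 and 0.185). MBTPS1, the site-1 protease that makes the first cut in SREBP2, fell to 171 ± 3.83 CPM in siDEPDC1, against 193 ± 2.61 CPM in siCTL (log2 fold change -0.17, edgeR adjusted p = 0.012). With siCTL replicate 1 left out, MBTPS1 did not pass (edgeR adjusted p = 0.071). SCAP, the escort protein, had a log2 fold change of -0.031 (95% interval -0.17 to 0.11).

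Promoters were searched for the core TCACNCCAC of the sterol regulatory element, on both strands, from 250 bases before to 50 bases after the RefSeq start. Of 31 sterol genes with a promoter sequence, 1 (3.23%) held it, beside 1.17% of 11253 tested genes searched. That gene was SREBF2 itself, and its element is shown as the regulator's own gene carries it, with the core in capitals (RefSeq, GRCh38.p14, chr22:41832962-41832990, plus strand).

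SREBF2: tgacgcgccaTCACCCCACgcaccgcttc

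In the other genes searched, these letters are not in this window, which says nothing of the factor.

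**Figure D4:**
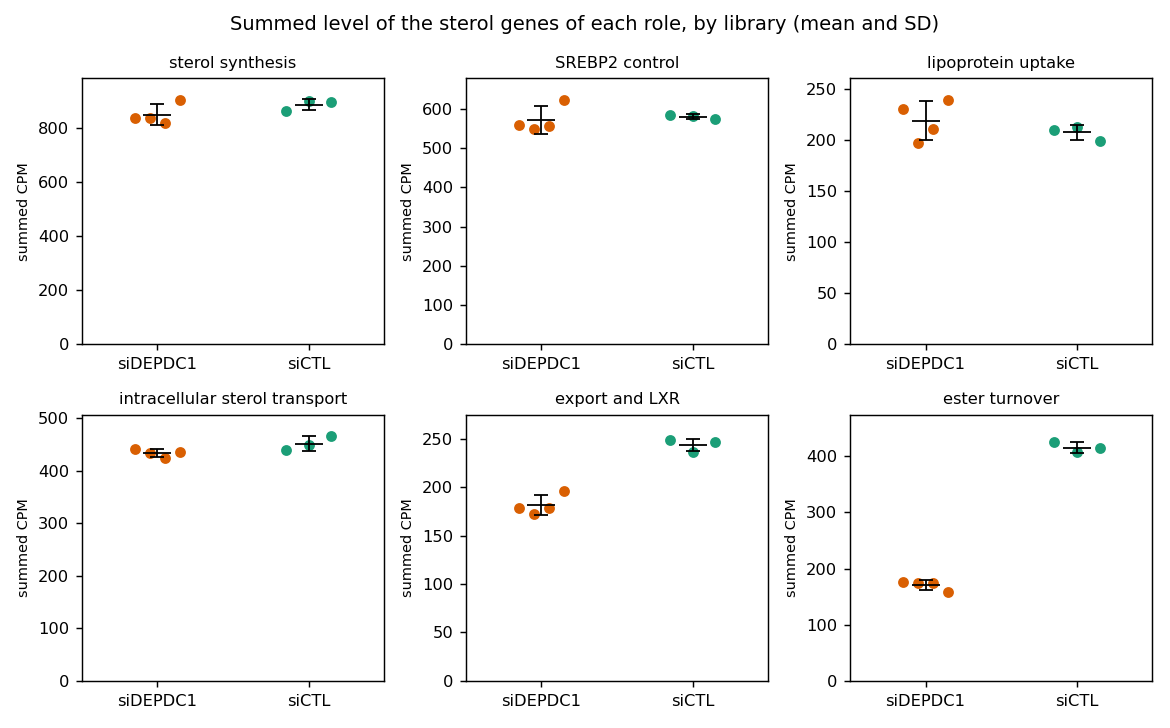
Summed CPM of the sterol genes of each role (y axes, from 0) in each siDEPDC1 library (orange, left) and siCTL library (green, right), with the mean and SD in black. Sums of synthesis, SREBP2 control, uptake and transport genes overlap between groups. The sums of export and LXR genes and of ester turnover genes are lower in all 4 siDEPDC1 libraries, although NR1H2 itself rose.

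Summed over the 18 synthesis genes, the level was 820 to 906 CPM in siDEPDC1 and 866 to 902 CPM in siCTL, and these ranges overlapped. The sum of the 4 export and LXR genes was 173 to 196 CPM in siDEPDC1 and 236 to 249 CPM in siCTL. Within it ABCA1 averaged 83.2 CPM in siDEPDC1 and 153 CPM in siCTL. NR1H2, in the same sum, rose from 65.6 CPM in siCTL to 79.1 CPM in siDEPDC1. That sum therefore follows ABCA1 and does not show a fall of each gene. The sum of the 2 ester genes was 157 to 177 CPM in siDEPDC1 and 407 to 425 CPM in siCTL. NCEH1 averaged 76.6 CPM of it in siDEPDC1 and 294 CPM in siCTL. The transport sums, 423 to 442 CPM in siDEPDC1 and 439 to 466 CPM in siCTL, combine the rise of NPC2 with the fall of NPC1.

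A list of 56 other genes of sterol metabolism, also made with earlier results of these data known, was read the same way. Of these 45 were tested, 14 fell and 6 rose, which is 31.1% and 13.3% of those tested beside 17.9% and 16.5% of all tested genes. LIPA, the lysosomal acid lipase that hydrolyses lipoprotein cholesterol esters, fell most, to 44.0, 46.0, 40.0 and 36.6 CPM in siDEPDC1, against 114, 113 and 121 CPM in siCTL (log2 fold change -1.47 ± 0.068, edgeR adjusted p = 9.8e-19). Its 3' UTR also holds GATAACT, as do those of 5 other tested genes of this list. Of these 6 carriers 4 fell and 2 rose, or 66.7% and 33.3%, beside 17.9% and 16.5% of all tested genes. As the word was found from these fold changes, those shares are no independent evidence about it. The share of falls over all searched carriers is not given here. The other 2 tested ester genes of the list, LCAT (log2 fold change 0.31, edgeR adjusted p = 0.069) and LIPE (0.15, edgeR adjusted p = 0.43), did not pass the test.

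Among receptors of the lipoprotein receptor family on this list, LRP8 fell 1.41-fold, LRP5 1.31-fold and LRP6 1.17-fold. Of 16 tested transport genes 7 fell and 3 rose. Falls were 43.8%, beside 17.9% of all tested genes, and rises 18.8%, near the 16.5% of all tested genes. The oxysterol-binding relative OSBPL3 was down 1.54-fold and CAV1, the caveolar cholesterol-binding protein, down 1.34-fold. OSBPL8, OSBPL1A and the contact-site protein GRAMD1C fell as well, whereas OSBPL2 and OSBPL10 rose. Of 6 tested export and LXR genes of the list 2 passed, a called share of 33.3% beside 34.4% of all tested genes. ABCA5 and RXRA, the partner receptor of LXR, fell (log2 fold change -0.43 and -0.20), while ABCA2 (0.048), ABCA7 (0.087), RXRB (0.096) and LPCAT3 (-0.12) did not pass. RXRA lost its call without siDEPDC1 replicate 2 (edgeR adjusted p = 0.0556) and without siCTL replicate 1 (0.112), and OSBPL10 lost it without siCTL replicate 3 (edgeR adjusted p = 0.0514). OSBPL1A lost its call with counts thinned to the smallest library (edgeR adjusted p = 0.142). Of 6 oxysterol and steroid enzymes 2 were tested and neither passed.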

How the data were processed

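RNA sequencing libraries of MDA-MB-231 cells (4 siDEPDC1, 3 siCTL; grouped by sample title) were made with a TruSeq kit and read as 100-base pairs, per the labels' protocols. The authors deposited raw counts per Ensembl gene and library, neither pooled nor normalized. Per the submitters' processing notes the build was GRCh38 and the tools were FastQC, STAR 2.7.9a and DESeq2. The sources used here do not give the read counter, annotation release or strand setting.

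Of 60675 identifiers, 42022 had a symbol and 58444 were in GENCODE 29 (coordinates, exonic lengths, 3' UTRs of at least 50 bases). Genes were kept with filterByExpr and compared between groups in R 4.3.3 by edgeR 4.0.16 (robust glmQLFit and glmQLFTest after TMM scaling, two-sided, no covariate), with an adjusted p (Benjamini-Hochberg) under 0.05 as the call. The steps were tested on simulated data. There they recovered most 2-fold changes without bias but missed many smaller ones, so that a first pass mark set on smaller changes was not met and was replaced by one on 2-fold changes. A gene that did not pass may therefore have changed by a small amount. Standard errors come from the F statistic, with 95% intervals on its degrees of freedom. CPM are TMM-scaled, TPM divide them by exonic length, and depths of 7690583 to 15360409 counts limit low genes such as CYP51A1.

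Per-library values are given for called members with a log2 fold change of at least 0.3 in size and for HMGCS1, SQLE, INSIG1, SREBF2, ABCA1, SOAT1 and NCEH1, and up to 15 called genes of the second list are named. Some genes of that list count in its totals but are not reported here. Genes of that list that did not pass, overlapping genes and the ratio pairs other than NCEH1 to SOAT1 were named after their values were seen. Members and lists were chosen with earlier results of these data known. Alternatives were DESeq2 size factors, library totals, other count filters, DESeq2 1.42.0, limma-voom (limma 3.58.1), a replicate block, thinning, and each library left out. For the second list and the NCEH1 to SOAT1 ratio they were chosen after seeing the data. Same-numbered libraries did not deviate together, so numbers were not used as pairs.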

Additional observations from a re-analysis of the deposited data

Results flagged for a closer look

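Values of the 4 siDEPDC1 libraries were examined for each of the 36 genes. The distance of the most extreme library to the next, divided by the full spread of the 4, was above Dixon's 95% critical value in 3 genes, and chance gives about 1 in 20. It was 0.895 in HMGCS1 and 0.842 in SC5D, where siDEPDC1 replicate 1 was highest, and 0.866 in FDFT1, where siDEPDC1 replicate 4 was highest.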

How the results depend on the processing

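The count of sterol genes that fell was 14, with 12 to 14 as each library was left out and 12 to 14 under the other settings. The count that rose was 6, with 3 to 7 as each library was left out. It was 3 with the replicate block on numbers 1 to 3, 3 with no replicate block in the same 6 libraries, and 3 with counts thinned to the smallest library, and the cause was not tested. The correlation of deviations between same-numbered libraries was -0.158, -0.047 and -0.019, and between differently numbered ones it ran from -0.061 to 0.180. So few values cannot settle whether same-numbered libraries were handled together, and the labels do not say. With the block, 12 sterol genes fell. Of 20 called members, 11 passed under all 16 settings (NCEH1, ABCA1, ABCG1, SOAT1, NPC1, MYLIP, SC5D and IDI1 as lower, NPC2, NR1H2 and LRP1 as higher). Over 575 values of single members, 502 kept direction and side of the threshold, 43 lost a call, 8 gained one and 22 changed sign. The changes of sign were in members that did not pass the test. FDFT1 was 0.0030 with DESeq2 size factors, 0.029 with library totals, 0.014 with the stricter filter and 0.0030 with DESeq2. CYP51A1 was -0.081 with the replicate block and -0.096 with no replicate block in the same 6 libraries, SREBF2 -0.030 in both, and SCAP 0.035 after thinning. With single libraries left out, the log2 fold changes ran from -0.14 to 0.020 for PMVK, -0.065 to 0.031 for FDFT1, -0.096 to 0.23 for CYP51A1, -0.043 to 0.094 for HSD17B7, -0.030 to 0.053 for SREBF2 and -0.086 to 0.019 for SCAP. Library totals alone moved the median of all tested genes to 0.031. The other pathway genes that fell numbered 11 to 15 and those that rose 4 to 7 without single libraries, and 9 rose with library totals. The log2 ratio of NCEH1 to SOAT1 differed by -1.62 to -1.56 without single libraries. A search of every transcript found GATAACT in 6 members in place of 5. Thinning ended the calls of MVK, MSMO1, INSIG1 and NR1H3 (edgeR adjusted p = 0.0599, 0.0544, 0.0761 and 0.0753). OSBPL1A lost its call with the replicate block (edgeR adjusted p = 0.0608). Depth limits CYP51A1 and ABCG1 most.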
